A study of Mus musculus with 4 samples.

Results

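Cx3cr1, Aif1, Cd46, Cd55, Cd59a and Cd59b are genes known from immune cells or from the control of complement. All 6 were read in round spermatids, the haploid germ cells that follow meiosis. The 6 genes were taken by symbol from a table of 25965 listed genes. They had been chosen by their RPM level in these same data, so their levels are given as a description. The cells were sorted from testis of ICR mice, an outbred stock, and RNA was measured by Smart-seq2, a full-length protocol that keeps no strand. The heterozygous group (Wfdc15a+/-, 2 libraries, the controls) was compared with the group labelled as knockout (Wfdc15a-/-, 2 libraries), so the controls carried an altered allele too. How the allele was made and which animals gave each library were not given in the sources used here, and wild-type controls named in the design were not analysed here.

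CX3CR1 is the receptor for fractalkine (CX3CL1), a chemokine held on a membrane stalk, and it marks monocytes and microglia. AIF1, also called IBA1, is a calcium-binding protein that bundles actin and is a standard macrophage marker. CD46, CD55 and CD59 protect a cell from its own complement. CD46 is a cofactor for the cleavage of C3b and C4b, CD55 speeds the decay of the C3 convertases, and CD59 blocks the assembly of the membrane attack complex. In rodents Cd46 is known mainly from the acrosome of sperm, and the mouse carries second copies of the other regulators, Cd55b and Cd59b, that are known from testis.

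The libraries held 5774112 and 33853604 reads in heterozygous samples 1 and 2, and 21160061 and 11268909 reads in knockout-labelled samples 1 and 2. Levels are RPM, the reads of a gene scaled to all reads of its library, in which 3 reads equal 0.0886 to 0.520 RPM. All 24 genes of a list of round spermatid markers averaged 10 RPM or more in the heterozygous group, and they summed to 8311 to 11081 RPM per library. Wfdc15a itself was listed at 121 and 85.2 RPM in the heterozygous samples and at 82.6 and 59.5 RPM in the knockout-labelled samples (log2 difference -0.53, SE 0.29, adjusted p = 0.647 by limma). The genotype is therefore named below as labelled.

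The listed Cx3cr1 row turned out to cover other genes. It runs over 166668 bases of the minus strand at chr9:119901616-120068283 (mm10), and 5 other listed genes share bases with it. Gorasp1 (chr9:119925673-119937558), Ttc21a (chr9:119937606-119967793), Csrnp1 (chr9:119971166-119977250) and Xirp1 (chr9:120013755-120023598) lie wholly inside the row, and Wdr48 (chr9:119894895-119926579) shares 24964 bases with it. Wdr48 encodes a WD40 protein that activates deubiquitinases, Gorasp1 a Golgi stacking protein, Ttc21a a protein of intraflagellar transport, Csrnp1 a nuclear protein and Xirp1 an actin-binding protein of muscle. By GENCODE M21 exons, 0 bases of a Cx3cr1 exon are shared with an exon of any of the 5.

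The ends of the row equal those of 1 transcript, Cx3cr1-202. Its 3 exons hold 3156 bases, the coding part is bases 89 to 1153, and a last exon of 12 bases lies across an intron of 147651 bases from the second exon. The transcripts Cx3cr1-201 and Cx3cr1-203 start at base 120048683 of the chromosome and take in none of the 5 genes. The junction is shown because this short exon alone carries the row across its neighbours. The 18 last bases of the second exon (chr9:120049279-120049296, in lower case) and the 12 bases of the last exon (chr9:119901616-119901627, in capitals) are written 5′ to 3′ on the minus strand, from the GENCODE M21 transcript.
Cx3cr1-202 junction: aaagaaaaagaaaggaagGAAGGAAGGAAG
All 30 bases shown are A or G.

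The Cx3cr1 row was listed at 996 and 1116 RPM in the heterozygous samples and at 1028 and 987 RPM in the knockout-labelled samples. The 5 overlapping rows summed to 1003, 1121, 1021 and 985 RPM in the same order. The row thus equalled 99.3%, 99.5%, 100.7% and 100.2% of the sum of the rows it overlaps, library by library. Wdr48 supplied 735, 718, 640 and 708 RPM of that sum and Ttc21a 242, 363, 326 and 239 RPM. Gorasp1 was at 14.9 to 21.8 RPM, Csrnp1 at 5.02 to 36.0 RPM and Xirp1 at 2.13 to 3.07 RPM. The high sample of the row, heterozygous sample 2, was also the high sample of Ttc21a.

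**Figure D1:**
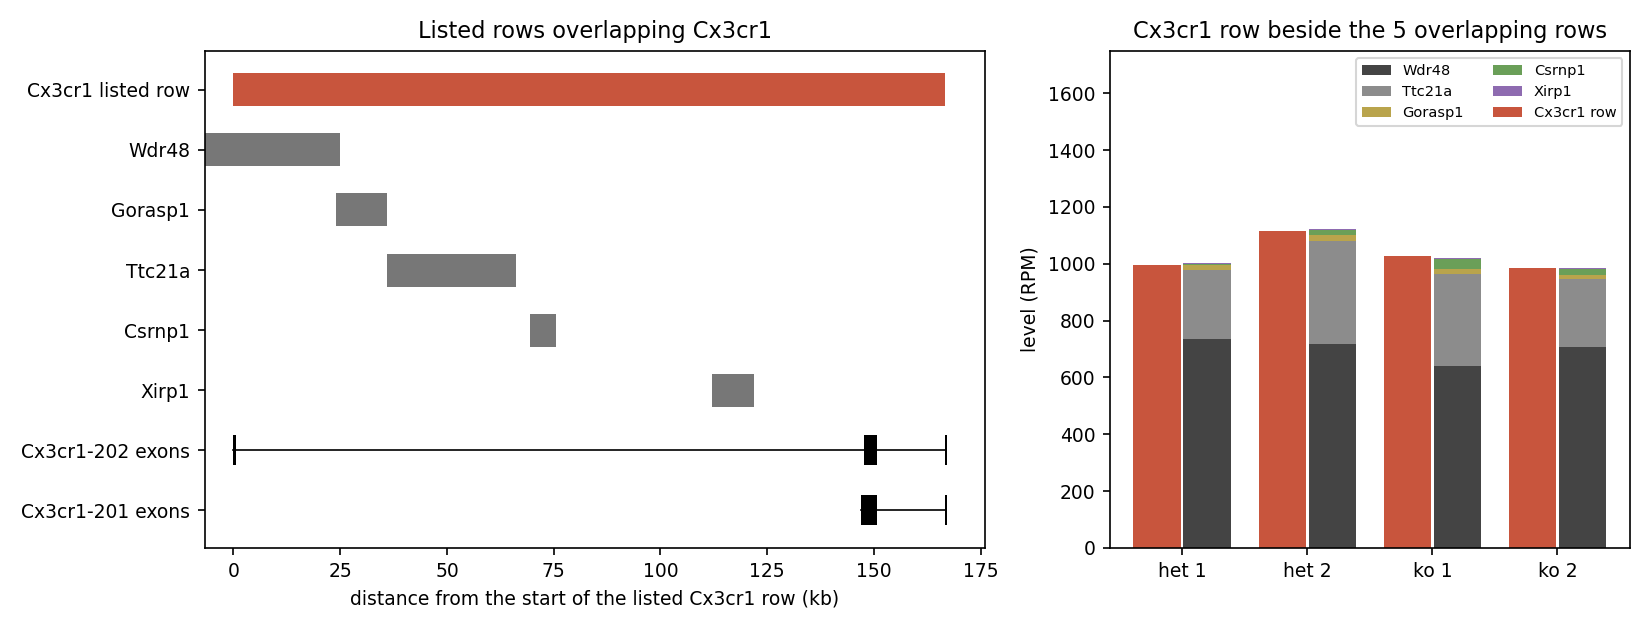
Left, the listed Cx3cr1 row and the 5 listed genes that overlap it, against distance in kb from the start of the row, with the exons of 2 Cx3cr1 transcripts in black (exons under 0.6 kb are drawn 0.6 kb wide, and Wdr48 continues past the left edge). Right, RPM of the Cx3cr1 row (red bars) beside the stacked RPM of the 5 overlapping rows in heterozygous (het) and knockout-labelled (ko) libraries, the red bar minus the stack being between -6.93 and 6.90 RPM in each library.

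Whether rows of the table hold reads from their whole listed interval was read from nested genes. The table lists 2207 pairs in which 1 gene lies wholly inside another. Where the inner gene had at least 20 reads, the outer row was at or above the inner one in 100% of pairs in each of the 4 libraries. This held on the same strand (179 to 273 pairs per library) and on the opposite strand (535 to 843 pairs per library). The tool and rule behind the counting were not given in the sources used here.

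Taking away the 4 genes that lie inside it left 728, 713, 647 and 710 RPM in the Cx3cr1 row, beside 735, 718, 640 and 708 RPM in the Wdr48 row. The row minus all 5 came to -6.93 and -5.20 RPM in the heterozygous samples and to 6.90 and 2.13 RPM in the knockout-labelled ones. Apart from the last exon of 12 bases, the exons of Cx3cr1 lie outside those 5 rows. The row is a total, however, in which reads of these exons are not separated from reads of the genes it overlaps. Part of Wdr48 lies outside the row, so the row minus all 5 is not a level of Cx3cr1 itself. The ends of the row beyond Wdr48 were quiet: the nearest listed genes were Scn11a, a sodium channel gene, at 0.945 to 4.33 RPM and Ccr8, another chemokine receptor gene, at 0.177 RPM in knockout-labelled sample 2 and 0 reads in the other libraries.

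Aif1 (chr17:35170991-35176068, mm10, minus strand) was different in this respect, since no listed gene overlaps it. It stood at 316 and 558 RPM in the heterozygous samples and at 554 and 430 RPM in the knockout-labelled samples. Heterozygous sample 1 was lowest and heterozygous sample 2 highest, so the groups overlap. The nearest listed genes were Gm17705 at 0.798 to 1.04 RPM and Lst1, a leukocyte gene of the same class III region, at 0.0591 RPM in heterozygous sample 2, 0.236 RPM in knockout-labelled sample 1 and 0 reads in the other libraries. None of the 50-base stretches of Aif1 transcripts occurs in a transcript of another GENCODE gene.

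The level of Aif1 stood beside near-absent macrophage transcripts in the heterozygous libraries. The 27 genes of a macrophage list together gave 47.6 and 41.8 RPM there, less than Aif1 alone. Of these 27 genes, 2 averaged 10 RPM or more in that group, H2-Ab1 (13.0 and 16.7 RPM) and Emr1, the F4/80 gene (13.0 and 12.5 RPM). Tyrobp, an adaptor of myeloid receptors, and Trem2, a receptor that signals through it, had 0 reads in the heterozygous group, where 3 reads over the group equal 0.0757 RPM. Aif1 in these 2 libraries averaged 437 RPM (SD 171, n = 2).

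The 4 complement regulators were read at lower values. Cd55 (chr1:130439027-130462744, minus strand) was listed at 42.1 and 34.7 RPM in the heterozygous samples and at 78.2 and 68.7 RPM in the knockout-labelled samples. Cd46 (chr1:195041285-195092248, minus strand) was listed at 18.2 and 16.3 RPM, then at 30.8 and 46.8 RPM. Both knockout-labelled samples lay above both heterozygous samples for each gene. Cd59b (chr2:104069849-104091187, plus strand) was listed at 12.6 and 13.2 RPM, then at 28.8 and 25.8 RPM. Cd59a (chr2:104095801-104115354, plus strand) was listed at 10.04 and 10.4 RPM, then at 25.3 and 12.4 RPM. For Cd59a the second knockout-labelled sample lay close to the controls and the first far above them.

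Only Cd55 of these 4 touches another listed gene. It shares 169 bases, 102 of them in exons of both, with the antisense Gm16083, which was at 6.03 to 14.2 RPM. Without strand, reads there cannot be assigned to either gene. The listed Cd46 row lacks 4459 bases at the 3′ side of the GENCODE gene, so a read there was outside the row. The Cd59 genes lie between Gm10799, with 1 read in knockout-labelled sample 1 and 0 reads in the other libraries, and A930018P22Rik, at 15.5 to 26.5 RPM, and overlap neither.

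**Figure D2:**
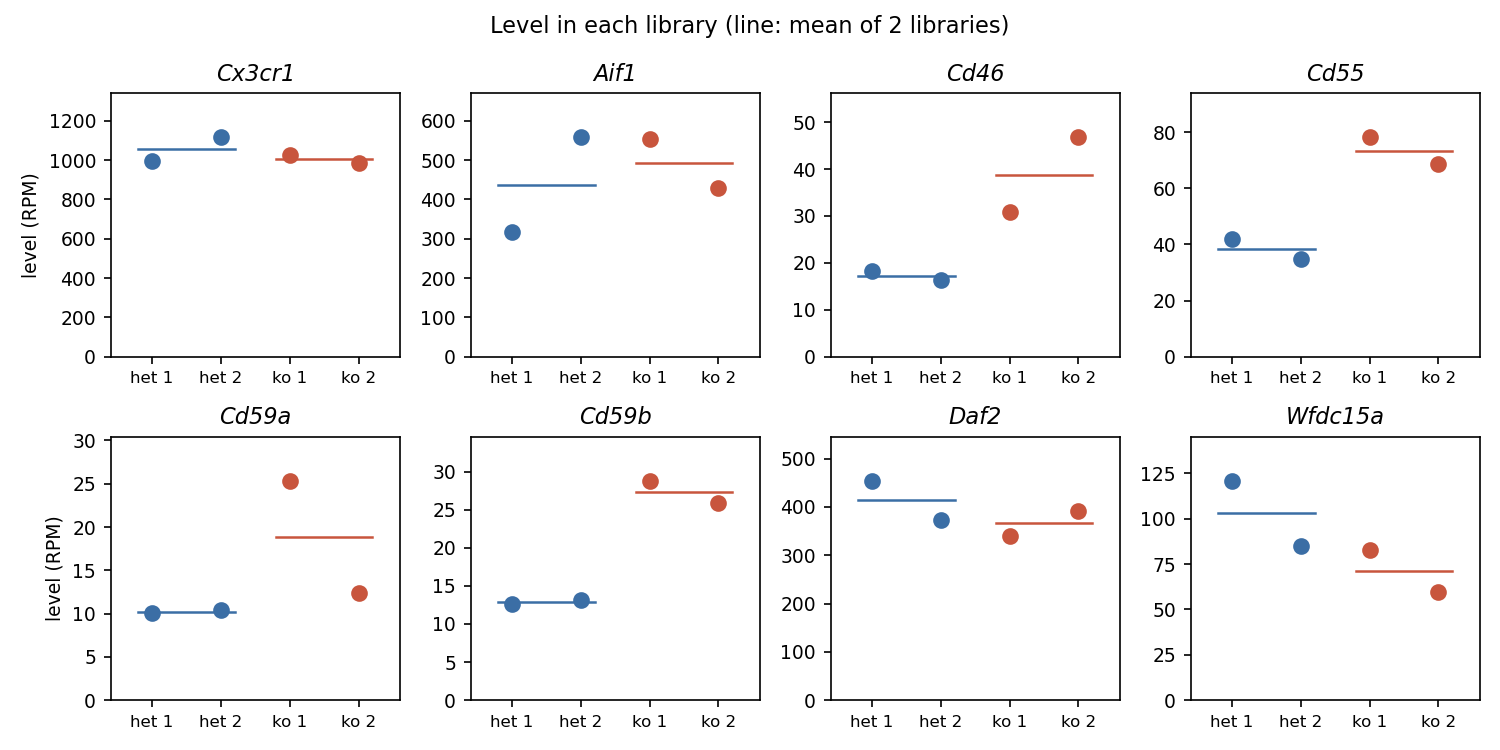
RPM in each heterozygous (het, blue) and knockout-labelled (ko, red) library for the 6 genes, for Daf2 and for Wfdc15a, with a line at the mean of each pair of libraries and an axis from 0 in each panel. Cd46, Cd55, Cd59a and Cd59b lie higher in both ko libraries than in both het libraries, while the Cx3cr1 row, Aif1 and Daf2 overlap between the groups.

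Cd59a and Cd59b are neighbours on the plus strand with 4613 bases between them, and both encode the inhibitor of the terminal pore. Their coding sequences of 372 and 390 bases are identical at 85.2% of 357 aligned bases, with a longest identical run of 47 bases. Of the 50-base stretches of Cd59a transcripts, 3.87% occur in Cd59b, and 20.1% of those of Cd59b occur in Cd59a or other genes. The stretch below is the first ungapped 120 bases of the alignment and is shown as an example of where the copies differ. How reads were assigned to either copy was not tested. Capitals mark the 20 bases that differ, and both lines come from GENCODE M21 transcripts on mm10, in the sense of the gene.
Cd59a-201, coding bases 99 to 218: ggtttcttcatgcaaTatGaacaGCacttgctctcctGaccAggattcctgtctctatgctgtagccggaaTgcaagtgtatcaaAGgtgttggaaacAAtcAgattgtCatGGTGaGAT
Cd59b-201, coding bases 96 to 215: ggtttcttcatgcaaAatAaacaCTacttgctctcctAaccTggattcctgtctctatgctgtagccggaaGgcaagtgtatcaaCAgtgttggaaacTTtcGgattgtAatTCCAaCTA
The differences are spread along the stretch, with the densest cluster at its 3′ end. Cd59b made up 55.7% and 55.9% of the reads of the pair in the heterozygous samples and 53.2% and 67.5% in the knockout-labelled ones. The pair summed to 22.7 and 23.6 RPM in the former and to 54.1 and 38.2 RPM in the latter.

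The second copy of Cd55 is listed under the older symbol Daf2 (chr1:130388537-130423009, minus strand) and was read far more than Cd55. Daf2 stood at 454 and 374 RPM in the heterozygous samples and at 340 and 392 RPM in the knockout-labelled ones. Its coding sequence is identical to that of Cd55 at 91.7% of 1149 aligned bases, with a longest identical run of 198 bases, so reads within that run fit either gene. Of the 50-base stretches of Daf2 transcripts, 30.4% occur in Cd55 or Gm15674, and 9.12% of those of Cd55 occur in Daf2 or Gm16083. How reads were assigned to Cd55 or Daf2 was not tested. RPM of Daf2 over RPM of Cd55 was 10.8 in both heterozygous samples and 4.35 and 5.70 in the knockout-labelled ones. The ratios of the groups do not overlap, and the smallest p an exact permutation test of 2 libraries against 2 can give is 0.333. The sum of both genes was 496, 408, 418 and 460 RPM. Between them lies Gm15674, which overlaps the Daf2 row and was at 22.1 to 26.3 RPM. Zp3r, an acrosomal protein gene of the same complement control family and the next listed gene on the other side of Cd55, was at 399 to 481 RPM.

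Levels of different genes were compared per kilobase of exon, as RPM per kb. On this scale Aif1 averaged 303 (206 to 364 over the 4 libraries) and the Cx3cr1 row 229 (219 to 248). Reads of the Cx3cr1 row cannot be told apart from those of the genes it overlaps. The value and place of the row on this scale are therefore not a level of Cx3cr1. Cd59b averaged 15.5 (9.73 to 22.1), Cd55 11.5 (7.15 to 16.1), Cd59a 8.03 (5.55 to 14.0) and Cd46 3.69 (2.15 to 6.15). The order of the 6 was the same in every library, except that the Cx3cr1 row exceeded Aif1 in 1 of 4. Only the Cx3cr1 row and Cd59b had ranges that do not overlap among neighbours in this order. Among the 24473 listed genes with an exon length, Aif1 lay at the mean percentile 99.4, the Cx3cr1 row at 99.1, Cd59b at 84.1, Cd55 at 81.4, Cd59a at 77.3 and Cd46 at 68.1. Daf2 averaged 233 RPM per kb, at percentile 99.1, next to Aif1 and far above the other regulators.

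Because reads between exons enter a row, the levels were also set per kilobase of the whole listed interval, a choice made after the data were seen. On that scale the Cx3cr1 row was at the mean percentile 91.2, at 6.19 RPM per kb, while Aif1 was at 91.5 RPM per kb and percentile 99.4. The 4 regulators lay at percentiles 66.6 (Cd46) to 82.8 (Cd55). Aif1 was thus at a mean percentile of 98.6 or above under each choice of length tried, and the Cx3cr1 row at 91.2 or above.

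The genes were chosen by level with earlier results of these data known, so the choice may not be independent of the group difference. That difference was tested for each of them in 1 fit over the 15888 genes that reached 1 RPM in 2 or more libraries. All 6 entered that fit. At an adjusted p under 0.05, 0 of the 6 passed, and 0% of all tested genes did. Libraries of the groups did not overlap for 4 of the 6 genes, all higher in the knockout-labelled group, beside 23.5% of all tested genes higher and 15.0% lower in this sense. Of the 6 genes, 3 were higher at an unadjusted p under 0.05, beside 6.21% of all genes higher and 1.87% lower. The median log2 difference was 0.87 over the 6 genes and 0.07 over all tested genes.

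Cd46 averaged 17.3 RPM (SD 1.31, n = 2) in the heterozygous and 38.8 RPM (SD 11.3, n = 2) in the knockout-labelled group, 2.25-fold higher. Its log2 difference was 1.14 (SE 0.34, 95% interval 0.40 to 1.88, adjusted p = 0.47 by limma). Cd59b averaged 12.9 RPM (SD 0.397, n = 2) and 27.3 RPM (SD 2.09, n = 2), 2.11-fold higher, with a log2 difference of 1.08 (SE 0.33, adjusted p = 0.511). The spread within each group of Cd59b was far smaller than the gap between them. Cd55 averaged 38.4 RPM (SD 5.24, n = 2) and 73.4 RPM (SD 6.70, n = 2), 1.91-fold higher, with a log2 difference of 0.94 (SE 0.28, adjusted p = 0.47). These 3 differences have intervals above 0 gene by gene, and none passed over all genes.

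Cd59a averaged 10.2 RPM (SD 0.25, n = 2) and 18.9 RPM (SD 9.13, n = 2), with a log2 difference of 0.80 (SE 0.42, 95% interval -0.13 to 1.73, adjusted p = 0.641). The value rests on knockout-labelled sample 1, since it was 0.28 without that sample and 1.31 without knockout-labelled sample 2. Aif1 averaged 437 RPM (SD 171, n = 2) and 492 RPM (SD 87.4, n = 2), with a log2 difference of 0.22 (95% interval -0.39 to 0.82, adjusted p = 0.88). Its sign depended on the controls: the difference was -0.19 without heterozygous sample 1 and 0.63 without heterozygous sample 2. The Cx3cr1 row averaged 1056 RPM (SD 84.5, n = 2) and 1007 RPM (SD 28.8, n = 2), with a log2 difference of -0.07 (95% interval -0.46 to 0.33, adjusted p = 0.952). That difference belongs to the whole interval, in which Wdr48 (-0.11) and Ttc21a (-0.09) held most reads.

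In bulk samples such as these, fewer cells of a type and less RNA per cell cannot be told apart. Macrophage transcripts moved with the groups: the 27 macrophage genes summed to 47.6 and 41.8 RPM in the heterozygous samples and to 456 and 160 RPM in the knockout-labelled samples. Of the 21 macrophage genes tested, 19 did not overlap and were higher in the knockout-labelled group and 0 were lower, beside 23.5% higher and 15.0% lower over all tested genes. H2-Aa (0.520, 0.177, 35.3 and 6.66 RPM), Lyz2 (1.04, 0.443, 37.6 and 8.08 RPM), Cybb and Mrc1 had the smallest p among them. Cd46, Cd55, Cd59a and Cd59b together came to 83.0 and 74.6 RPM, then to 163 and 154 RPM. From the first to the second knockout-labelled sample, Cd55 (78.2 and 68.7 RPM), Cd59b (28.8 and 25.8 RPM) and Cd59a (25.3 and 12.4 RPM) fell. Cd46 (30.8 and 46.8 RPM) rose, and the macrophage sum fell. The part of other cells in the values of the 4 regulators was not tested.

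**Figure D3:**
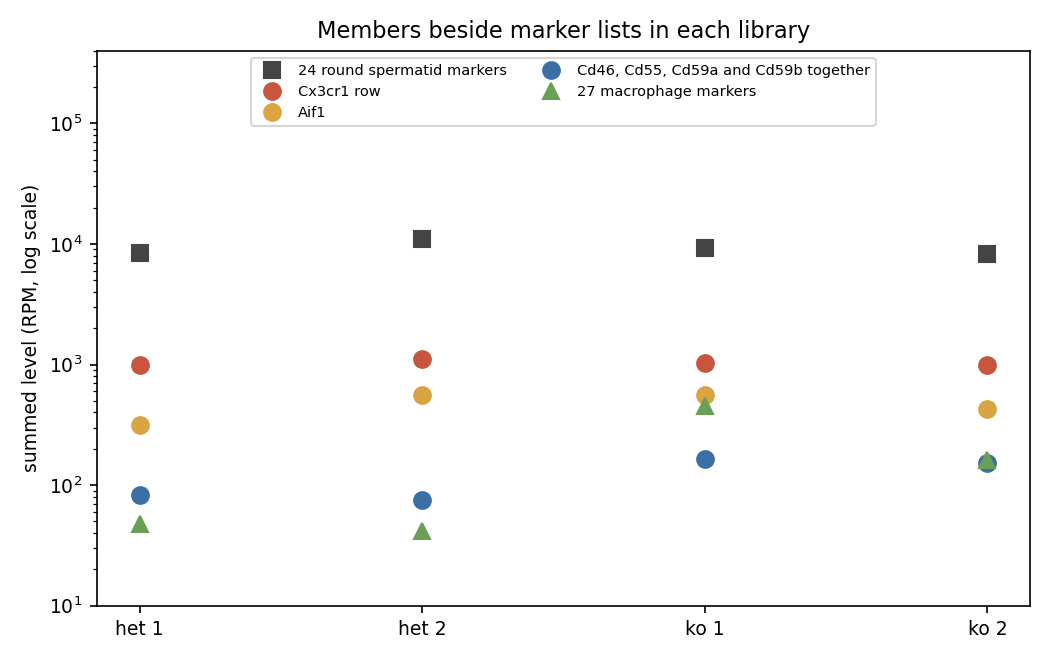
Summed RPM, on a log axis, in heterozygous (het) and knockout-labelled (ko) libraries for 24 round spermatid markers, 27 macrophage markers, and Cd46, Cd55, Cd59a and Cd59b together, with the Cx3cr1 row and Aif1. The macrophage sum went from 47.6 and 41.8 RPM to 456 and 160 RPM, while Aif1 stayed between 316 and 558 RPM.

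Markers of other testis cells were read in the same way. Leydig cell genes summed to 6.41 and 3.16 RPM in the heterozygous samples and to 35.9 and 18.3 RPM in the knockout-labelled ones, with Insl3 and Cyp17a1 leading. The Insl3 row overlaps Jak3, at 10.9 and 7.15 RPM, then at 26.6 and 16.2 RPM. Without strand, reads shared by these rows cannot be assigned to either gene. The sums over each list overlapped between the groups for spermatocyte genes (535 to 897 RPM, led by Sycp2 and Ccna1) and peritubular and endothelial genes (25.7 to 104 RPM, led by Dcn and Vwf). White blood cell sums overlapped too (17.0 to 33.6 RPM, led by Cd3d and Cd52), but the genes of that list differed in direction. Of its 6 tested genes, 4 did not overlap and were higher and 1, Cd3d, was lower (median log2 difference 1.15). Over all tested genes 23.5% were higher and 15.0% lower in this sense. The sums did not overlap for spermatogonial genes (123 and 93.1 against 149 and 135 RPM, led by Dazl and Gfra1) or for Sertoli cell genes (24.2 and 24.9 against 26.1 and 35.5 RPM, led by Cst12 and Dhh). Of the 7 tested Sertoli cell genes, 3 did not overlap and were higher and 0 were lower, beside those shares of all tested genes. Their median log2 difference was -0.009, and 0 had an unadjusted p under 0.05 by limma. Among the round spermatid markers, Tnp1 (418, 800, 347 and 231 RPM), Tnp2, Prm1 and Prm2 were lower in the knockout-labelled group at an unadjusted p under 0.05. These 4 genes encode the transition proteins and protamines of late chromatin packing. Lyzl6 (177, 259, 364 and 292 RPM) was higher at that threshold, beside 1.87% of all tested genes lower and 6.21% higher. Of the 24 markers, 6 did not overlap and were higher, 4 were lower and 14 overlapped. Over all tested genes 23.5% were higher and 15.0% lower without overlap. The part of these differences in the values of the 6 genes was not tested.

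The other complement regulators were taken from a list of 21 symbols, of which 17 are not among the 6 genes and 12 of those were tested. Libraries did not overlap for 5 of the 12, all higher in the knockout-labelled group, beside 23.5% higher and 15.0% lower over all tested genes, and the median log2 difference was 0.24. Clu, which encodes clusterin, was at 10.7 and 25.6 RPM, then at 37.2 and 29.6 RPM (log2 difference 1.001, adjusted p = 0.596). Its groups did not overlap, and its unadjusted p was under 0.05. Cr1l, the gene of the rodent membrane regulator Crry and the neighbour of Cd46, was near the floor at 1.04, 0.118, 1.84 and 2.22 RPM. On its other side Cd46 is followed by Cd34, a surface gene of blood stem and endothelial cells, at 12.5 to 25.2 RPM.

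Daf2 had a log2 difference of -0.17 (95% interval -0.64 to 0.29, adjusted p = 0.873), unlike Cd55 in sign, although the difference between the 2 genes was not tested beyond the ratio above. Serping1, the C1 inhibitor gene, was at 4.90 to 21.6 RPM, Susd4 at 1.154 to 7.56 RPM, Cr2 at 0.945 to 4.35 RPM, Sez6l2 at 0.473 to 1.51 RPM and Cpn1 at 0.355 to 1.21 RPM, with adjusted p from 0.677 to 0.979. Cfi, C4bp, Vtn, Vsig4 and Cpb2 reached at most 1.33 RPM and were not tested. Csmd1, Csmd2 and Csmd3, giant genes with complement control repeats, were listed at 45.3 to 54.0, 121 to 192 and 27.2 to 45.3 RPM. The Csmd2 row covers 4 listed genes, which summed to 115, 181, 163 and 113 RPM, led by Hmgb4, a germ cell HMG-box gene, at 108 to 173 RPM. The Csmd2 row itself was listed at 125, 192, 178 and 121 RPM, so it repeats the pattern seen at Cx3cr1.

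**Figure D4:**
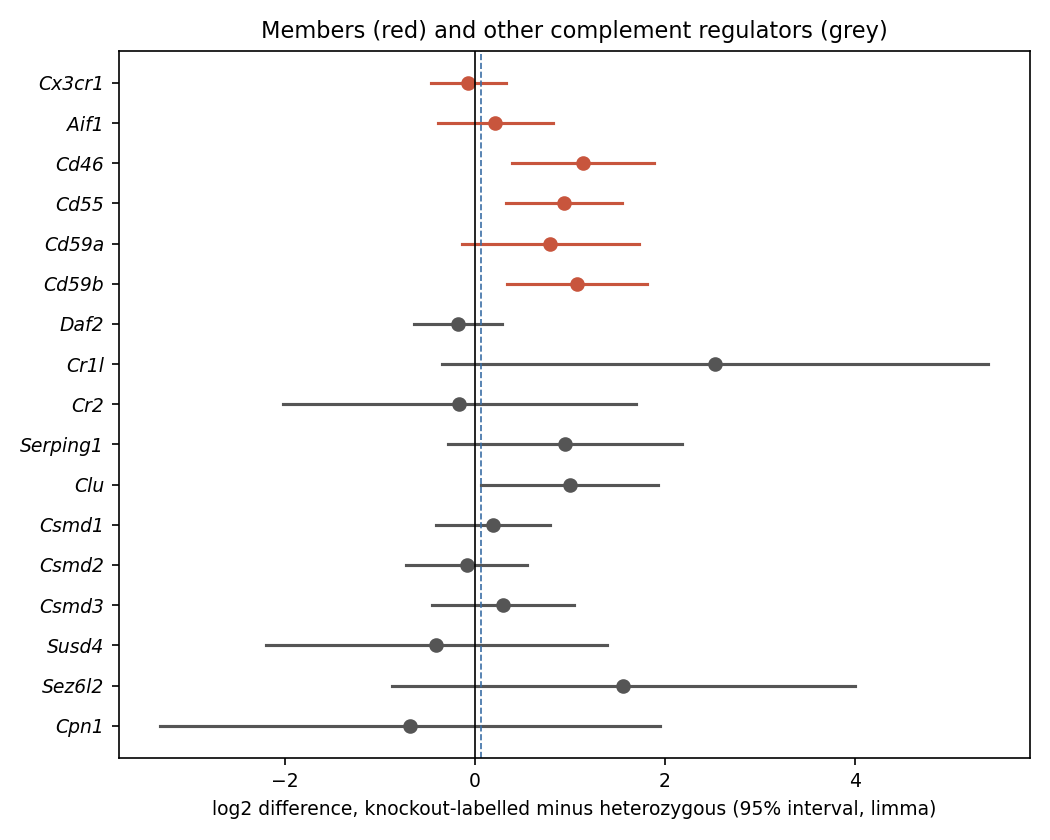
Log2 difference, knockout-labelled minus heterozygous, with its 95% interval by limma, for the 6 genes (red) and other tested complement regulators (grey), with a dashed line at the median of all tested genes (0.07). The intervals of Cd46, Cd55, Cd59b and Clu lie above 0, and no gene passed after adjustment over all genes.

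Complement components and receptors were mostly low. Of 29 matched genes, 19 were tested, and 7 did not overlap and were higher while 1 was lower in the knockout-labelled group, beside 23.5% higher and 15.0% lower over all tested genes (median log2 difference 0.36). The 3 chains of C1q and Itgb2, which are also genes of myeloid cells, had the smallest p: C1qb stood at 0.693 and 2.39 RPM, then at 12.2 and 6.74 RPM. C1qa was at 0 and 0.384 RPM, then at 7.33 and 3.02 RPM, C1qc at 0 and 0.0591, then 3.78 and 2.93 RPM, and Itgb2 at 1.21 and 0.945, then 3.97 and 5.50 RPM. The highest rows were C7 (39.6 to 70.7 RPM) and C8g (43.1 to 54.1 RPM), and the C8g row overlaps Fbxw5, an F-box gene at 200 to 263 RPM.

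The partners of CX3CR1 gave little reading. Cx3cl1, the gene of its ligand, had 0 reads in heterozygous sample 1, where 3 reads equal 0.520 RPM, and 0.148 to 0.284 RPM in the other libraries. The sheddase gene Adam10 (4.93 to 8.08 RPM) and the G protein genes Gnai2 (7.99 to 15.4 RPM) and Gnai3 (19.3 to 31.5 RPM) overlapped between the groups. The sheddase gene Adam17 was at 5.72 and 7.53 RPM, then at 8.65 and 7.72 RPM (adjusted p = 0.892). Of the 8 tested genes of this list, 2 did not overlap and were higher and 1 lower, beside 23.5% higher and 15.0% lower over all tested genes (median log2 difference 0.02, the Cx3cr1 row included). Itgav, an integrin chain that can bind the ligand, was at 5.72 and 0.738 RPM, then at 10.2 and 9.41 RPM (log2 difference 2.25, adjusted p = 0.569). Itgb3 (0.532 to 1.45 RPM) and Arrb2 (at most 1.75 RPM) were near the floor.

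The relatives and actin-bundling partners of AIF1 were low beside it. Aif1l, its paralogue, was without a read in the heterozygous group (0 reads) and at 1.18 and 0.177 RPM in the knockout-labelled group. Coro1a (0 reads in both heterozygous libraries, then 4.58 and 6.74 RPM) and Lcp1, or L-plastin (2.77, 0.325, 9.31 and 6.74 RPM), both genes of white blood cells, were higher in the knockout-labelled group at an unadjusted p under 0.05. Rac2 (5.89 and 8.57 RPM, then 5.58 and 3.55 RPM) went the other way without overlap (adjusted p = 0.757 by limma). Pls1 (3.69 to 9.70 RPM) and Pls3 (0.693 to 2.04 RPM) were low as well. Of the 6 tested genes, Aif1 included, 2 did not overlap and were higher and 1 lower, beside 23.5% higher and 15.0% lower over all tested genes (median log2 difference 0.43).

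CD59 has a Ly6/uPAR fold and CD55 and CD59 are held by a GPI anchor, so both gene groups were read. Of 33 matched Ly6/uPAR genes, 15 were tested (the Cd59 pair is not in this list), and 6 did not overlap and were higher while 1 was lower, beside 23.5% higher and 15.0% lower over all tested genes (median log2 difference 0.51). The highest was Lypd4, a sperm surface gene, at 1093 and 1267 RPM, then 1481 and 1203 RPM. Lypd9, listed as 4930504O13Rik, was at 127 and 124 RPM, then at 96.9 and 83.7 RPM. Ly6e stood at 0.866 and 0.650 RPM, then at 3.64 and 6.66 RPM, and Lypd11, listed as Gm4763, at 3.64 and 0.945, then 7.33 and 9.85 RPM, both with an unadjusted p under 0.05. Ly6g6c was at 10.4 to 27.1 RPM. Of 22 tested genes of GPI anchor synthesis, 6 were higher and 6 lower without overlap, beside 23.5% higher and 15.0% lower over all tested genes, and 0 had an unadjusted p under 0.05 (median log2 difference 0.08). Pigf (141 to 213 RPM) and Dpm1 (131 to 191 RPM) were the highest rows. The Dpm1 row overlaps Gm20716, at 189 to 282 RPM, and the Pigf row overlaps Rhoq, at 27.9 to 44.8 RPM. Pigs, Pgap2, Pigh and Pgap1 had the smallest p, with adjusted p from 0.628 to 0.724.

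Likeness of pattern was measured as the distance between log2 RPM values over the 4 libraries, each centred on its gene's mean, among 7265 genes averaging 10 RPM or more. The Cx3cr1 row lay closest to Ppp1r36 (0.0191) and Recql (0.0234), and 87 genes lay within 0.1. Aif1 lay closest to Sec1 (0.0362) and Nkx2-6 (0.0736), with 10 genes within 0.1. Sec1 was also lowest in heterozygous sample 1, at 18.2, 32.9, 32.9 and 24.9 RPM. Cd55 lay closest to Tchp (0.0413) and Usp30 (0.0697), Cd59b to Myst2 (0.0900) and Fnbp4 (0.0956), and Cd59a to Akr1a1 (0.0865) and Cobra1 (0.153). Cd46 had 0 genes within 0.1, with Flii (0.101) and Kcnq3 (0.137) nearest. With 4 libraries such closeness is a description of these samples, and flat genes such as the Cx3cr1 row have many neighbours.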

How the data were processed

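Round spermatids of 2 heterozygous and 2 knockout-labelled samples were amplified with 15 PCR cycles (Smart-seq2), per the labels' protocols. Per the submitters' processing notes, the build was mm10 and the tools included HISAT2 2.1.0, Trim Galore 0.6.6 and FastQC 0.11.8. The authors deposited log2 RPM values, without length adjustment. Counting tool and annotation were not given in the sources used here. Within each library the values step by whole reads, with the lowest value at 0.9 of 1 read (99.7% to 100.0% of values whole within 0.01 of a read), which gave the library totals. PCR reads carry no molecular identifiers and are not independent molecules, so a floor of 3 reads speaks for counting error alone.

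The 6 genes, the 14 lists and the tests were chosen with earlier results of these data known. Groups and replicate numbers came from the sample titles. Nothing says that replicates are separate animals, so p-values measure only how these samples spread, and that spread may be technical. Genes reaching 1 RPM in 2 or more libraries were fitted with limma 3.58.1 (R 4.3.3) along a mean-variance trend on the deposited log2 RPM, two-sided, Benjamini-Hochberg adjusted over all 15888 genes, with a threshold of 0.05. RPM means and folds are on the linear scale. The code was tested on simulated data. Of 244 list symbols, 229 matched as written, 11 by an older symbol, and 4 did not match. Setting genes with 0 reads in both heterozygous libraries to 3 reads over the group left every list median as given. Exon lengths (24473 genes) and sequences came from GENCODE M21, and coding sequences were aligned with Biopython 1.88. Python 3.11.15, pandas 2.3.3, numpy 2.4.6 and matplotlib 3.10.9 were used.

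Named were Wfdc15a, the 6 genes, listed genes overlapping or next to them, each complement regulator with a read, up to 4 tested members of other lists with the smallest p and 2 with the highest level, leading markers, and the 2 genes of closest pattern. The results of 1 such regulator and 1 macrophage marker are not reported here. Genes overlapping the Csmd2, C8g, Dpm1, Pigf and Insl3 rows were named after their values were seen. Each difference was recomputed with median-ratio and quantile scaling, with log2(RPM + 1), unfiltered, at a filter of 5 RPM, without the trend, with voom on recovered reads, without each library in turn and with a replicate block. Same-numbered replicates did not deviate together (correlation of deviations -0.076).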

Additional observations from a re-analysis of the deposited data

How the results depend on the processing

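The differences of Cd46 (log2 0.84 to 1.44), Cd55 (0.80 to 1.08), Cd59a (0.28 to 1.31) and Cd59b (0.999 to 1.16) kept their sign under all 12 alternatives and never passed, with adjusted p from 0.0698, 0.0518, 0.357 and 0.111 up to 0.9996. The Cx3cr1 row was at 0.015 without heterozygous sample 2 (range without each library in turn -0.15 to 0.015), and Aif1 at -0.19 without heterozygous sample 1 (range -0.19 to 0.63). The cause was not tested. Genes passing numbered 0 as reported, 1 with log2(RPM + 1), 180 with no filter, and 0 to 558 when each library was left out, where a lone sample is assumed to vary like the other group. These were 442 and 558 without heterozygous samples 1 and 2, and 0 and 5 without knockout-labelled samples 1 and 2. With a replicate block 66 genes passed, and Cd46, Cd55, Cd59a and Cd59b had adjusted p of 0.361, 0.447, 0.791 and 0.467. Nothing in the labels says that the replicate numbers pair the samples. Median-ratio scaling moved the median of all genes by -0.06 and quantile normalization by -0.11, and relative to that shift the signs of the 4 regulators were unchanged.

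Without each library in turn, list medians ran from 0.57 to 0.99 for complement regulators, 0.18 to 1.05 for components, -0.12 to 0.28 for fractalkine partners, 0.43 to 0.95 for AIF1 relatives, 0.23 to 0.73 for Ly6/uPAR genes and 3.62 to 5.58 for macrophage genes. The regulator range is for all 16 tested genes of that list, Cd46, Cd55, Cd59a and Cd59b included (median 0.87 with all libraries). The median of 0.24 given above leaves those genes out. The fractalkine median was 0.18 with a filter of 5 RPM and 0.17 with voom on recovered reads. The Ly6/uPAR median was 0.25 with quantile normalization, 0.32 with log2(RPM + 1), 0.14 with no filter, 0.19 with a filter of 5 RPM and 0.36 with voom. The macrophage median was 2.096 with log2(RPM + 1). Level percentiles were 98.7 (Cx3cr1 row) and 99.7 (Aif1) per kb of longest transcript. Without length correction they were 99.8 (Cx3cr1 row), 98.6 (Aif1), 77.6 (Cd46), 70.4 (Cd59a) and 74.2 (Cd59b). Per kb of listed interval, added after the data were seen, they were 91.2 (Cx3cr1 row), 70.2 (Cd59a) and 73.0 (Cd59b). The shallowest library, heterozygous sample 1, limits genes under 0.520 RPM.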
